A study of Mus musculus with 28 samples.

Results

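Satellite cells of wild-type (WT) mice that were proliferating in culture were compared with WT satellite cells taken straight from muscle, by sequencing of polyA RNA and across all genes. The comparison used 4 of the 18 RNA libraries of a study that holds 28 samples in all. Proliferating culture (WT_Cul, 2 libraries) was set against fresh isolation (WT_FI, 2 libraries), both taken from the table in which the authors quantified these states together. Members were all genes with status OK in each of the 4 libraries, which kept 22525 of the 22552 genes listed, and 14680 of them held enough fragments to be tested. The cells of both groups carried the label WT on a C57Bl/6 background and had been isolated by fluorescence-activated cell sorting (FACS). WT_Cul cells are labelled proliferating, and the culture medium the labels give is Ham's F-10 with 20% fetal bovine serum and 12.5 ng/ml basic fibroblast growth factor (bFGF); WT_FI cells are labelled quiescent. The mutant mice of the study carry a floxed exon 4 of Sirt1 and a Cre knocked into Pax7, and whether the WT mice carried the Cre or the floxed allele is not given in the sources used here. Nor are the time in culture, the gates of the sort, the age of the mice, or how many mice went into a library. The table numbers its libraries 0 and 1 within a state, and these numbers could not be tied to single labelled samples, of which there are 4 for WT_Cul and 5 for WT_FI. Whether the libraries stem from different animals or cultures is not stated, and a p-value here reflects library-to-library spread alone, which may be technical.

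Satellite cells are the stem cells of skeletal muscle and lie between a fibre and its basal lamina, where most are quiescent in the adult. Quiescent cells express the transcription factor Pax7 and receive Notch, calcitonin receptor and matrix signals that hold them out of the cell cycle. On injury, isolation or growth factor stimulation they leave quiescence, express the determination factor Myod1, enter the cycle as myoblasts, and later exit it to express Myog and the contractile proteins. Isolation from tissue itself takes hours and is known to induce stress-response transcripts in these cells.

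Before any result is read, the libraries themselves have to be described (levels in the plot of state and cycle genes). Totals were 25518871 and 31643216 fragments in WT_Cul and 24254119 and 29491305 in WT_FI. A gene's level is given below as CPM, the fragments scaled to a common library size with TMM factors. The typical difference between the libraries of a state was 0.711 on the log2 scale in WT_Cul and 0.331 in WT_FI, against 1.11 between the states, all as medians of the size of the difference over the genes tested. Library WT_Cul_0 differed from WT_Cul_1 in 2 ways. It held transcripts of differentiating muscle: Myog, the differentiation factor, was at 807 and 9.05 CPM in WT_Cul_0 and WT_Cul_1 and at 230.5 and 13.3 CPM in WT_FI_0 and WT_FI_1. Acta1, skeletal alpha-actin, was at 1458 and 39.05 CPM in WT_Cul and 162 and 149 CPM in WT_FI. Neither gene separated the states. WT_Cul_0 also held more short and fewer long transcripts: the median log2 difference from the WT_FI mean ran from 1.47 in the eighth of genes with the shortest length to -1.05 in the eighth with the longest, whereas WT_Cul_1 stayed between -0.0723 and 0.207. Such a gradient bears on any group of short genes. A fit with length-dependent offsets, chosen after the gradient was seen, is quoted for some lists only. Lists without a quoted value moved too: with it the median of pentose phosphate genes went from 1.39 to 0.85. The medians of the sterol synthesis and acetylation lists turned from -0.03 and -0.02 to 0.16 and 0.31.

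**Figure D1:**
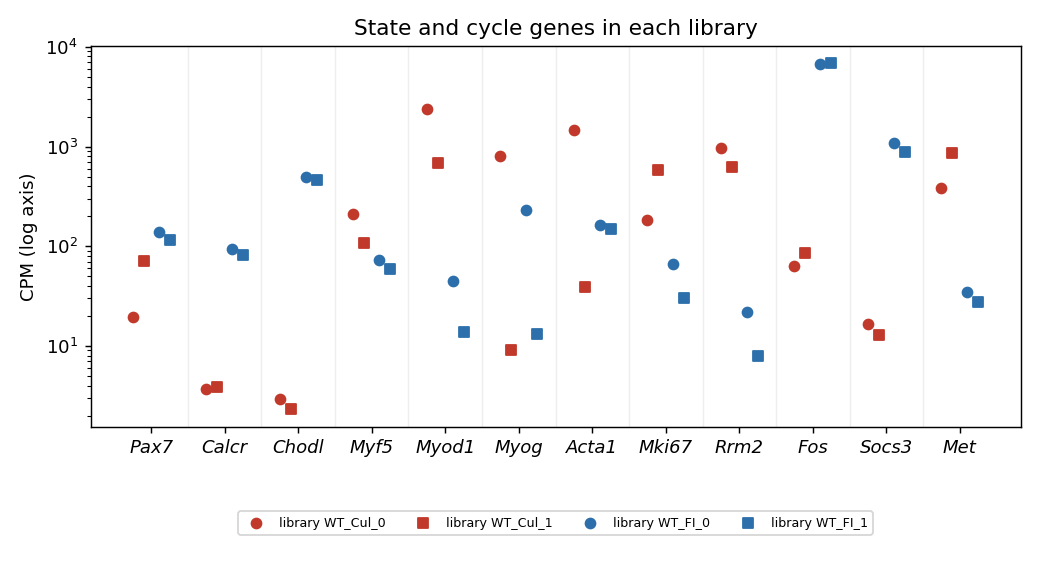
CPM on a log axis of 12 genes in each library, with WT_Cul_0 and WT_Cul_1 in red and WT_FI_0 and WT_FI_1 in blue. Each point is 1 library. Calcr, Chodl, Fos and Socs3 lie far lower in both red libraries, Rrm2, Myod1 and Met higher in both, and the red and blue points of Myog and Acta1 overlap.

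**Figure D2:**
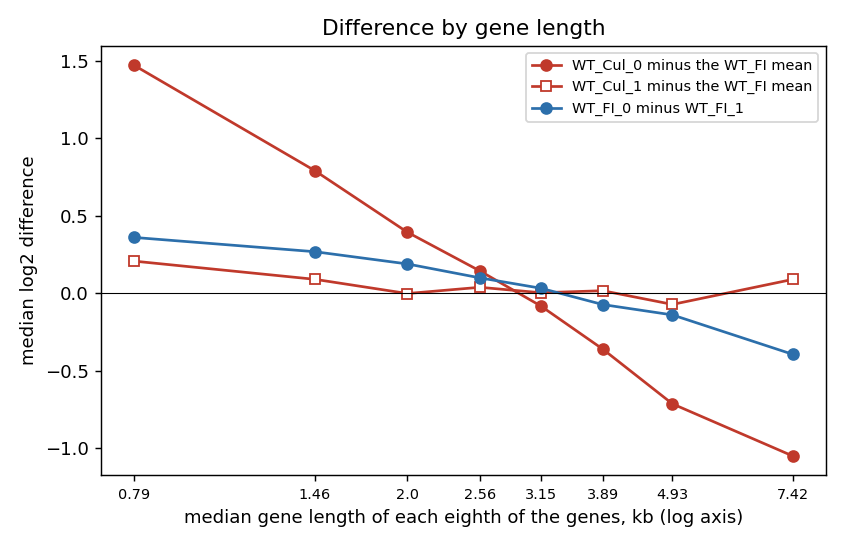
Median log2 difference over each eighth of the 14680 genes tested, against the median length of that eighth in kb on a log axis; the length is that implied by the fragments and FPKM of the table. The WT_Cul_0 line falls from 1.47 to -1.05, the WT_Cul_1 line stays near 0, and the WT_FI_0 minus WT_FI_1 line falls from 0.36 to -0.394.

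The WT_FI libraries carried the labelled cell type and abundant transcripts of others. Per length, Pax7 had 31.2 and 26.6 FPKM in WT_FI_0 and WT_FI_1 and Chodl, a membrane lectin enriched in quiescent satellite cells, had 198 and 184 FPKM. The smooth muscle actin Acta2 had 5105 and 6069 FPKM, the smooth muscle myosin Myh11 890.0 and 1762 FPKM and the fibroblast collagen Col1a1 1678 and 1072 FPKM in the same libraries. Of the list of 11 pericyte and smooth muscle markers, 8 were lower in WT_Cul, and their summed level was 4074 and 2743 CPM in WT_Cul and 25210.0 and 33970.0 CPM in WT_FI. Fibroblast and fibro-adipogenic markers summed to 1033 and 1772 CPM in WT_Cul and 29590.0 and 20300.0 CPM in WT_FI, with 11 of 14 tested called lower. Tenocyte markers summed to 242 and 263 CPM in WT_Cul and 5360.0 and 5476 CPM in WT_FI (5 of 6 lower), and Schwann cell markers to 318 and 745 CPM in WT_Cul and 3220.0 and 3200.0 CPM in WT_FI (4 of 8 lower, and 7 without WT_Cul_1). Endothelial markers were scarcer, at 115 and 198 CPM in WT_Cul and 752 and 825 CPM in WT_FI (10 of 14 lower). Blood lineage markers summed highest in WT_FI_0. Erythroid markers summed to 0.200 and 0.633 CPM in WT_Cul against 114 and 19.9 CPM in WT_FI_0 and WT_FI_1. Lymphocyte markers summed to 0.560 and 0.759 CPM in WT_Cul against 46.5 and 3.77 CPM in WT_FI. Leukocyte markers summed to 22.9 and 38.3 CPM in WT_Cul against 596 and 213 CPM in WT_FI. Among these, S100a8 had 553.0 and 18.49 FPKM in WT_FI_0 and WT_FI_1, whereas Lyz2 had 206.7 and 197.4 FPKM. Of 18 leukocyte markers, 2 were called lower (11.1%, against 16.0% of all genes), and 17 estimates were below 0. Cd68 went the other way, at 5.931 and 3.938 FPKM in WT_Cul against 2.965 and 2.343 FPKM in WT_FI. So did the tenocyte factor Scx, at 171.1 and 22.18 FPKM in WT_Cul against 20.98 and 11.35 FPKM in WT_FI. Des, of the pericyte list, overlapped between the states, at 880.4 and 216.6 FPKM in WT_Cul against 327.9 and 307.7 FPKM in WT_FI. Neither Scx nor Des was called. Lyz1 had no fragment in WT_Cul, and the estimate of Hbb-b1 there rounded to 0 fragments. In bulk RNA, fewer cells of a type and less RNA per cell cannot be told apart, and the part these cells have in a lower level in WT_Cul was not tested. That holds for the genes called lower in each list below, since the sums of these markers differed in the same direction. Levels are scaled to a common library size, and the part of these cells in the genes called higher was not tested either.

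**Figure D3:**
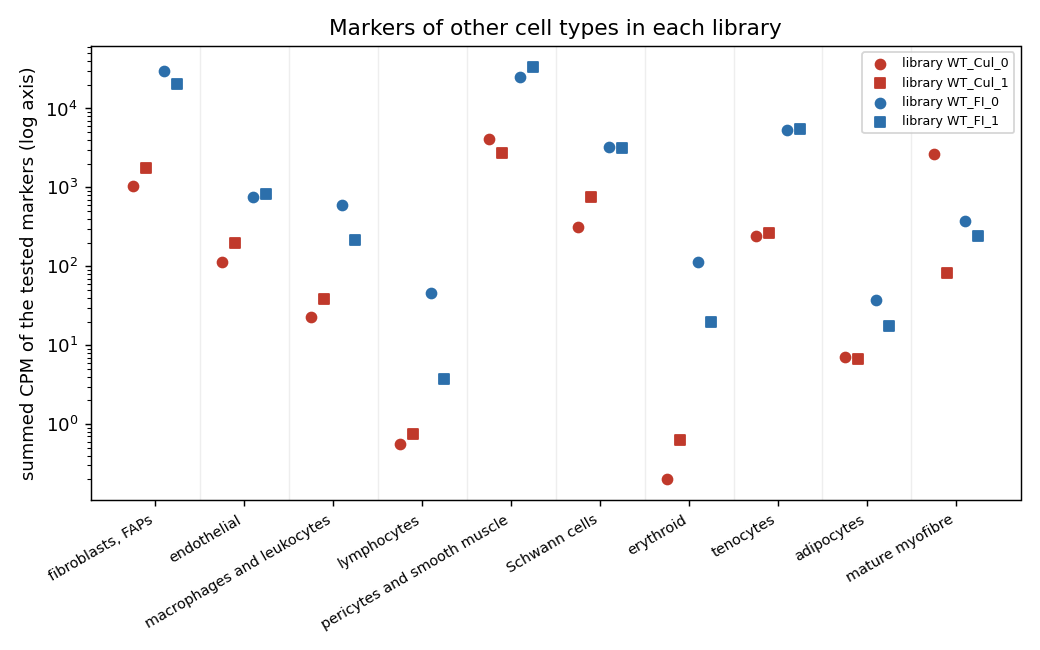
Summed CPM, on a log axis, of the tested markers of 10 cell types in each library (WT_Cul in red, WT_FI in blue). Both WT_FI libraries lie above both WT_Cul libraries for every type except mature myofibre, where WT_Cul_0 is highest, and WT_FI_0 lies far above WT_FI_1 for lymphocytes and erythroid cells.

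Across all genes, 1845 of 14680 were higher in WT_Cul (12.6%) and 2355 were lower (16.0%), or 28.6% in either direction, at an adjusted p under 0.05. Genes were tested with edgeR's quasi-likelihood F test, and p-values were adjusted by Benjamini-Hochberg over the whole table. The median log2 difference over all genes was 0.0616. Below, a gene is said to be higher or lower, or to have risen or fallen, only where it passed this threshold; log2 values are differences WT_Cul over WT_FI on the CPM scale, with the standard error after ±. Groups did not overlap in CPM for 35.5% of genes in the higher direction and 35.4% in the lower. The counts changed on leaving out a library: without WT_FI_0 they were 583 higher and 1525 lower, without WT_FI_1 389 and 1674, without WT_Cul_0 2648 and 3198, and without WT_Cul_1 3909 and 4141. No gene called in the full comparison changed sign in any of these. Of the 239 called genes named in the text, 67 were no longer past the threshold without WT_FI_0, 70 without WT_FI_1, 3 without WT_Cul_0 and 1 without WT_Cul_1. For most gene lists, counts in parentheses are the lowest and highest on leaving out 1 library. For some lists the range of the median is given instead.

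**Figure D4:**
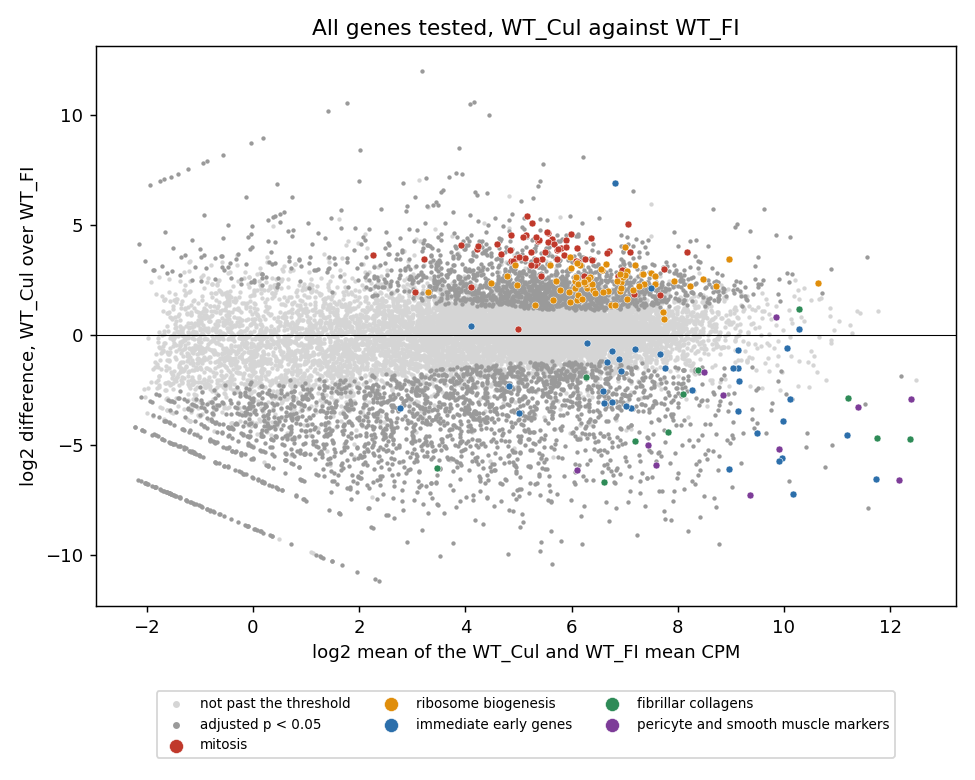
Log2 difference WT_Cul over WT_FI against the log2 mean level of each of the 14680 genes tested; dark grey marks adjusted p < 0.05 and colours mark 5 gene lists. Mitosis and ribosome biogenesis genes lie above 0, whereas most immediate early genes, fibrillar collagens and pericyte markers lie below it; the slanted rows of points at low levels are genes with no fragment in a group.

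Genes of mitosis and DNA replication were higher in culture almost throughout. Of 64 mitosis genes tested, 62 were higher in WT_Cul and none was lower, against 12.6% and 16.0% of all genes, with a median log2 difference of 3.75 and a range of 0.29 to 5.40. The exceptions were Ube2s (log2 1.96) and Pttg1 (log2 0.29), both outside the rule for naming and given because they complete the count. Both WT_Cul libraries carried the rise, with medians of 3.76 in WT_Cul_0 and 4.00 in WT_Cul_1 relative to the WT_FI mean, and leaving out each library in turn left 49 to 63 higher. Ncapg, a condensin subunit that compacts mitotic chromosomes, had 87.7 and 114 CPM in WT_Cul, against 8.53 and 4.95 CPM in WT_FI (log2 3.90 ± 0.46, adjusted p = 0.0115). Prc1, which bundles microtubules of the central spindle, had 198 and 178 CPM in WT_Cul, against 18.4 and 10.04 CPM in WT_FI (log2 3.73 ± 0.46, adjusted p = 0.0123). Both lay well apart between the states. Anln, a scaffold of the contractile ring, Ndc80, of the outer kinetochore, and Mybl2, a transcription factor of the G2 genes, rose with log2 differences of 3.77, 3.90 and 4.11. The proliferation antigen Mki67 had 184 and 575 CPM in WT_Cul, against 65.8 and 30.5 CPM in WT_FI (log2 2.98 ± 0.74, adjusted p = 0.0384), with the lower WT_Cul value in WT_Cul_0, the library with Myog.

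DNA replication genes behaved alike: 51 of 57 were higher, none was lower, and the median was 2.87 (2.95 and 2.76 in WT_Cul_0 and WT_Cul_1; 26 to 54 higher on leaving out each library). Cdc45, which activates the replicative helicase, had 77.04 and 71.96 CPM in WT_Cul, against 5.82 and 3.77 CPM in WT_FI (log2 3.96 ± 0.42, adjusted p = 0.0103). Pole2, the second subunit of the leading-strand polymerase epsilon, had 34.7 and 27.4 CPM in WT_Cul, against 3.11 and 2.74 CPM in WT_FI (log2 3.41 ± 0.42, adjusted p = 0.0119). Its catalytic partner Pole had a log2 difference of 4.10. Prim1, the primase that starts each Okazaki fragment, rose by a log2 of 2.93. Residual expression in WT_FI was low but not nil, as the 214 and 139 fragments of Ncapg there show.

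Promoters of cell cycle genes are known for a few short elements. Promoters of 3 members of each list are printed here, the called members with the smallest p that hold the element. The sequences are RefSeq's, on build GRCm38.p6, 250 bases before to 50 bases after the annotated start, written 5′ to 3′ on the gene's strand. In the first 3, from the mitosis list, capitals mark the CHR element TTTGAA on either strand; in the next 3, from the replication list, they mark the E2F words TTTGGCGC, TTTCCCGC, TTTGCCGC or TTTCGCGC on either strand, overlapping words included. Ncapg lies at chr5:45669675-45669974 (plus strand), Prc1 at chr7:80294201-80294500 (plus), Anln at chr9:22389157-22389456 (minus), Pole2 at chr12:69228141-69228440 (minus), Mcm3 at chr1:20820263-20820562 (minus) and Mcm5 at chr8:75109259-75109558 (plus).
Ncapg: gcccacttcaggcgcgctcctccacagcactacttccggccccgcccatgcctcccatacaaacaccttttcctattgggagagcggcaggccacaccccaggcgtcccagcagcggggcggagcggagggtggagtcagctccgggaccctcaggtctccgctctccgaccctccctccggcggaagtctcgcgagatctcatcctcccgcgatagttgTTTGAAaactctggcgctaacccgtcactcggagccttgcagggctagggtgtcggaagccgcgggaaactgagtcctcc
Prc1: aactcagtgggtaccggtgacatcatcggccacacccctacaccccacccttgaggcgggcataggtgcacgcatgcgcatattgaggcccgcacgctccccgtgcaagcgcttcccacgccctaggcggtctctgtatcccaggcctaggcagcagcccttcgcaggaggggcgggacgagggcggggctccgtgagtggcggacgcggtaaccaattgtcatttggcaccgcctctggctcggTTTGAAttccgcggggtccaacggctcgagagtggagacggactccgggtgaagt
Anln: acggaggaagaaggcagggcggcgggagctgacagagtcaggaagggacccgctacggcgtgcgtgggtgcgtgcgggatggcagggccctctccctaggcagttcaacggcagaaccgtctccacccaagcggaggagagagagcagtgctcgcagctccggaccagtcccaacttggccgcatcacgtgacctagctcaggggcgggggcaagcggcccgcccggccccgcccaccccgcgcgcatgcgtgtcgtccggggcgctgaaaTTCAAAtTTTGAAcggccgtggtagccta
Pole2: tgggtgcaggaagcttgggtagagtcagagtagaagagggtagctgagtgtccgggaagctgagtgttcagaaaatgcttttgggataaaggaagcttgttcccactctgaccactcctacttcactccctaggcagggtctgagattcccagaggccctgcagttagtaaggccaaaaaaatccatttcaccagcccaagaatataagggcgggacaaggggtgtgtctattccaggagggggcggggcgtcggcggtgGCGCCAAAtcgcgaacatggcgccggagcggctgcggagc
Mcm3: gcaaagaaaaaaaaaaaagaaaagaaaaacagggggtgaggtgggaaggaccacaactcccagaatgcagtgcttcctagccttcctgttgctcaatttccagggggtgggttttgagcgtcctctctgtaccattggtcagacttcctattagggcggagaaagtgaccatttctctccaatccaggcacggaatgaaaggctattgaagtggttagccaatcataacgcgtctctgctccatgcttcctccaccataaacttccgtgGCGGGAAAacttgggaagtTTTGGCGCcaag
Mcm5: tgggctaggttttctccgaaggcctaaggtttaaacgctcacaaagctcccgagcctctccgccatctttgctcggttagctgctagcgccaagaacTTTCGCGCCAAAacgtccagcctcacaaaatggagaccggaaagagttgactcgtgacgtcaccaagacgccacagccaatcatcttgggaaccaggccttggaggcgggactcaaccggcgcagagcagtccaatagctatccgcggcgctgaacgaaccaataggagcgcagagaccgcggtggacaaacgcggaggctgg

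Among the mitosis genes, 53 had a promoter entry, and 41 of their 57 promoters held TTTGAA (71.9%), against 11.9% of the 13191 promoters of tested genes and 15.5% of the replication promoters. The E2F words were in 18 of 58 replication promoters (31.0%), in 8.77% of the mitosis promoters and in 3.65% of all. The CCAAT box, CCAAT on either strand, was in 70.2% of mitosis promoters, 53.4% of replication promoters and 37.3% of all. Over all genes called higher, TTTGAA was in 15.7% of promoters, and over all called lower in 12.1%. These are matches of letters in 300 bases, a description and not binding sites. In the printed sequences the matches in Ncapg and Prc1 lie just before the start and the overlapping matches in Mcm5 lie further upstream, while those in Anln, Pole2 and Mcm3 lie after it.

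Upstream of replication, G1 control genes were called higher more often than all genes (36.8% against 12.6%) and lower less often (10.5% against 16.0%). Of 38 genes, 14 rose and 4 fell, with a median of 1.03 (1 higher without WT_FI_1 and 20 without WT_Cul_1, and 1 lower without WT_FI_0 and 6 without WT_Cul_0). Ccne1, the cyclin that drives S phase entry, had 46.6 and 41.1 CPM in WT_Cul, against 6.42 and 4.02 CPM in WT_FI (log2 3.07 ± 0.44, adjusted p = 0.0142). Cdc25a, the phosphatase that activates its kinase, had a log2 difference of 2.24. The repressor-class factor E2f7 rose by 2.70 and the pocket-protein partner E2f4 by 2.09. Among those that fell were the MYC antagonists Mxd1 (log2 -2.47) and Mxd4 (-1.89) and the CDK inhibitor Cdkn1c, at 4.08 and 2.59 CPM in WT_Cul, against 228 and 40.2 CPM in WT_FI (log2 -5.33 ± 0.99, adjusted p = 0.0208). Cdkn1c is an imprinted gene, and its level in WT_FI_0 was several times that in WT_FI_1. Myc itself was left out because its estimate failed in WT_Cul_0. Of 25 p53 targets, 11 were higher (44.0%, against 12.6% of all genes) and 4 lower (16.0%, the same share as of all genes). Their median of 1.38 ranged from 0.85 to 1.67 on leaving out each library. The ubiquitin ligase Mdm2 (log2 2.64), the apoptosis effector Bax (3.53) and the RNA-binding Zmat3 (2.42) rose. Btg2, an antiproliferative immediate early gene, fell, with a log2 difference of -4.42. Perp, of the desmosome (-4.71), and the stress sensor Sesn1 (-2.18) fell too.

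Many genes of protein synthesis were called higher in WT_Cul. Ribosome biogenesis genes, which make and assemble ribosomal RNA in the nucleolus, were higher for 64 of 67 with none lower and a median of 2.36. The medians of WT_Cul_0 and WT_Cul_1 were 2.47 and 2.33, but the number of calls depended on the WT_FI libraries: 17 were called without WT_FI_0 and 15 without WT_FI_1. Nop2, an rRNA methyltransferase, had 281 and 248 CPM in WT_Cul, against 32.4 and 26.1 CPM in WT_FI (log2 3.17 ± 0.37, adjusted p = 0.011). Pno1 and Rrp12, of the small-subunit precursor, had log2 differences of 3.22 and 3.20, and Tsr1 and Mphosph10, of small-subunit assembly, 2.77 and 2.53. Aminoacyl-tRNA synthetases, which charge tRNAs, were higher for 24 of 37, median 1.87. The smallest p was that of the cysteinyl enzyme Cars, with 178 and 175 CPM in WT_Cul, against 26.1 and 27.2 CPM in WT_FI (log2 2.72 ± 0.33, adjusted p = 0.0118). Without WT_FI_0 1 was called higher and without WT_FI_1 3. Translation initiation factors were higher for 19 of 38, median 1.57, among them Eif2s1, the regulated alpha subunit of eIF2 (log2 2.46), and Eif3b, a core subunit of eIF3 (1.98); without WT_FI_0 or WT_FI_1 the count was 3 or 1. Splicing factors were higher for 21 and lower for 1 of 56 (3 higher without WT_FI_0 and 34 without WT_Cul_1, and 0 lower without WT_FI_0 and 2 without WT_Cul_0): the snRNP protein Snrpa1 rose by a log2 of 2.74, and the kinase Clk1, which phosphorylates SR proteins, fell (log2 -1.55).

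Ribosomal protein genes went the same way less clearly. All 78 tested had estimates above 0 and 17 were called higher (2 higher without WT_FI_1 and 69 without WT_Cul_1), but the median was 2.70 in WT_Cul_0 and 1.10 in WT_Cul_1, and the median of 2.09 became 0.99 with the length correction. Rpl26 had 105 and 67.1 CPM in WT_Cul, against 5.38 and 5.87 CPM in WT_FI (log2 3.94 ± 0.43, adjusted p = 0.0103). These genes have many processed pseudogenes, and how fragments shared with such copies were assigned is not stated, so their levels are uncertain. Gapdh, another gene of that kind, was listed at 1.04 and 0.475 CPM in WT_Cul, against 0.478 and 0.498 CPM in WT_FI. Proteasome genes, which encode the protease that clears ubiquitinated proteins, were higher for 25 of 39, none lower, median 1.79 (2.22 and 1.34 by library; 1.25 with the length correction). Psmd5, an assembly chaperone of its base, had 218 and 151 CPM in WT_Cul, against 37.4 and 36.2 CPM in WT_FI (log2 2.33 ± 0.37, adjusted p = 0.0159). Psme3, of the nuclear activator cap, had a log2 difference of 2.12. Counts on leaving out a library were 0 higher without WT_FI_0 and 36 without WT_Cul_1. Of 49 autophagy and lysosome genes 2 were lower (4.08%, against 16.0% of all genes), the cathepsins Ctsk (log2 -2.73) and Ctsf (-2.33). None was higher, and the median of -0.11 ranged from -0.12 to -0.05 on leaving out each library.

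**Figure D5:**
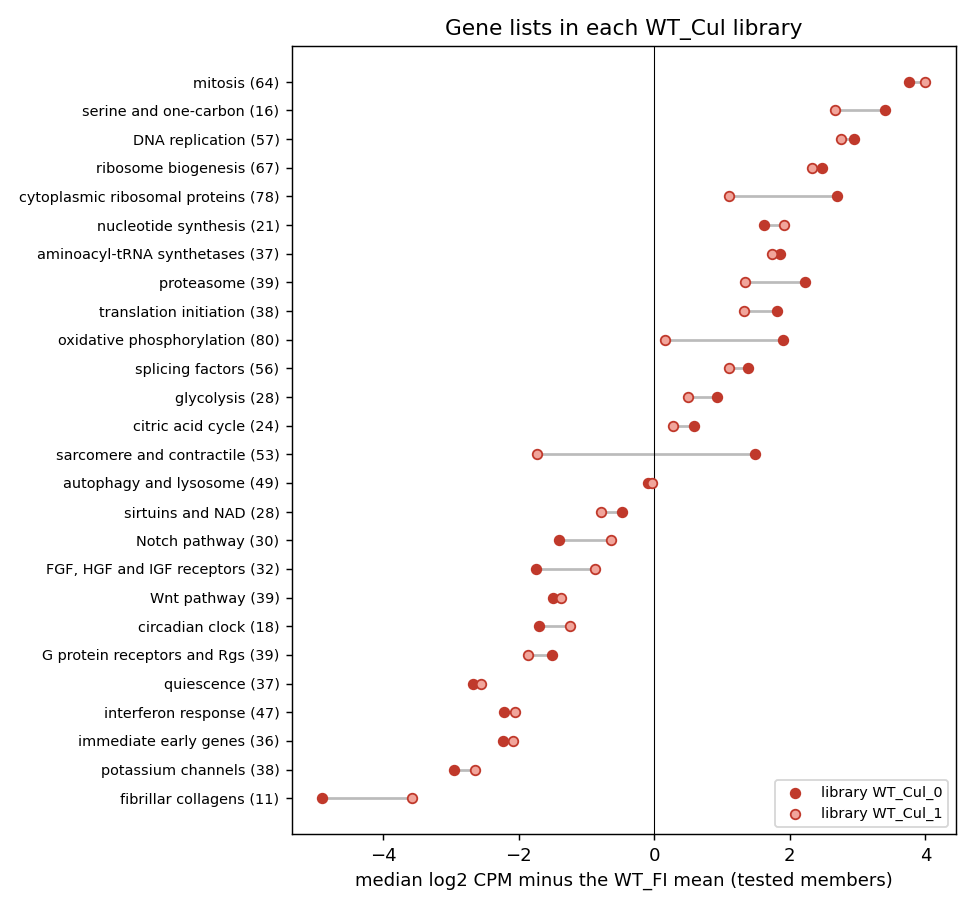
Median log2 CPM of 26 gene lists in WT_Cul_0 (filled) and WT_Cul_1 (open), each relative to the mean of the WT_FI libraries; numbers of tested members are in parentheses and a grey line joins the libraries. Mitosis, replication, one-carbon and ribosome biogenesis lists lie above 0 in both libraries, collagen, potassium channel, immediate early and interferon lists below 0 in both, and the sarcomere list lies on opposite sides of 0.

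Serine and one-carbon metabolism supplies carbon units for nucleotides. Of 16 genes 11 rose and none fell, with a median of 3.05 that was 3.41 in WT_Cul_0 and 2.67 in WT_Cul_1 (8 higher without WT_FI_1 and 12 without WT_Cul_0). Mthfd2, the mitochondrial methylene-tetrahydrofolate dehydrogenase, had 278 and 225 CPM in WT_Cul, against 13.9 and 9.33 CPM in WT_FI (log2 4.43 ± 0.43, adjusted p = 0.00962). Its mitochondrial partner Mthfd1l had 144 and 168 CPM in WT_Cul, against 11.4 and 9.82 CPM in WT_FI (log2 3.88 ± 0.36, adjusted p = 0.00962). Both had a lowest WT_Cul value more than 10 times their highest WT_FI value. Psat1, of serine synthesis, rose by a log2 of 3.18, and Shmt2, which passes the carbon of serine to folate in mitochondria, by 3.30. Nucleotide synthesis was higher for 14 of 21 and lower for none (median 1.90; 3 higher without WT_FI_0 and 17 without WT_Cul_1), including Umps, of uridine monophosphate synthesis (log2 2.97), Nme1, a nucleoside diphosphate kinase (4.25), and Ppat and Atic, of purine synthesis (2.16 and 2.62). In the pentose phosphate pathway the oxidative enzymes G6pdx and Pgd rose, by log2 differences of 2.85 and 2.82, and so did Prps1, which makes phosphoribosyl pyrophosphate (2.42). The other 6 of 9 did not pass, from Prps2 at 0.44 to Taldo1 at 1.48, among them Pgls, the third oxidative enzyme, at 1.39 (0 higher without WT_FI_1 and 5 without WT_Cul_1).

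Glycolysis had 8 of 28 genes higher, 5 lower and a median of 0.70 (28.6% higher and 17.9% lower, against 12.6% and 16.0% of all genes; 2 higher without WT_FI_1 and 12 without WT_Cul_1, and 1 lower without WT_FI_0 and 7 without WT_Cul_1). Slc2a4, the insulin-responsive glucose transporter of muscle and fat, had 1.24 and 2.25 CPM in WT_Cul, against 133 and 159 CPM in WT_FI (log2 -6.38 ± 0.51, adjusted p = 0.00962), and the groups lay far apart. Ldha, the lactate dehydrogenase subunit that favours lactate production, had 1775 and 756 CPM in WT_Cul, against 172 and 118 CPM in WT_FI (log2 3.12 ± 0.59, adjusted p = 0.0214). Ldhb, the other subunit, had 14.7 and 12.5 CPM in WT_Cul, against 49.3 and 52.04 CPM in WT_FI (log2 -1.90 ± 0.35, adjusted p = 0.0199). Pkm2, the table's symbol for muscle pyruvate kinase, rose by a log2 of 2.50, Eno3, the muscle enolase, rose by 4.04, and Pfkm, the muscle phosphofructokinase, fell (log2 -1.88). Of the 14 genes of the pyruvate dehydrogenase complex, its kinases, phosphatases and carrier, only Pdk2 passed, at 11.4 and 4.56 CPM in WT_Cul, against 49.97 and 49.9 CPM in WT_FI (log2 -2.65 ± 0.55, adjusted p = 0.0262), with counts of 0 higher without WT_Cul_0 and 4 without WT_Cul_1, and 1 lower without WT_Cul_0 and 4 without WT_Cul_1. The inhibitory kinase Pdk4 was at -1.13, the transacetylase Dlat at 1.11 and Pdha1 at 0.14, none past the threshold. The lower call is 7.14% of that list, against 16.0% of all genes. The citric acid cycle list had 2 higher of 24 (8.33%, against 12.6% of all genes), both malic enzymes, Me2 (log2 2.38) and Me1 (1.80). None was lower, and the median of 0.48 ranged from 0.24 to 0.60 on leaving out each library.

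Oxidative phosphorylation depended on the library. Its 80 genes, mostly short, had a median log2 difference of 1.28, but this was 1.90 in WT_Cul_0 and 0.16 in WT_Cul_1, and 0.16 after length correction; 3 were called higher and 1 lower, below the share of all genes (1 higher without WT_FI_0 and 66 without WT_Cul_1, and 1 lower without WT_Cul_1 and 3 without WT_Cul_0). The gene that fell was Cox4i2, a cytochrome oxidase isoform found in lung and vessels, at 1.24 and 1.01 CPM in WT_Cul, against 34.5 and 37.1 CPM in WT_FI (log2 -4.99 ± 0.44, adjusted p = 0.00962). Fatty acid oxidation had 2 higher and 6 lower of 36 (5.56% higher and 16.7% lower, against 12.6% and 16.0% of all genes; 0 higher without WT_FI_0 and 7 without WT_Cul_1, and 3 lower without WT_FI_0 and 11 without WT_Cul_0). The muscle carnitine palmitoyltransferase Cpt1b fell, with a log2 difference of -2.45, the nuclear receptor Ppara at -2.34, the lipoprotein lipase Lpl at -2.18 and the fatty acid binding protein Fabp4, also an endothelial and adipocyte gene, at -4.07; the acyl-CoA synthetases Acsl4 (1.57) and Acsl5 (1.39) rose. Of 29 sterol synthesis genes 1 was higher and 1 lower (3.45% each, against 12.6% and 16.0% of all genes). The gene that was lower was Insig1, which retains SREBP (log2 -1.29). The median of that list, -0.03, ranged from -0.09 to 0.01 on leaving out each library.

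The study asks about SIRT1, a deacetylase that needs NAD, and the list of sirtuins and NAD enzymes had 2 higher and 5 lower of 28, with a median of -0.41 (7.14% higher and 17.9% lower, against 12.6% and 16.0% of all genes; 0 higher without WT_FI_0 and 5 without WT_Cul_1, and 3 lower without WT_FI_1 and 9 without WT_Cul_0). Sirt1 was at 54.5 and 84.6 CPM in WT_Cul, against 63.7 and 90.8 CPM in WT_FI (log2 -0.15 ± 0.40, adjusted p = 0.796), and the groups overlapped. The enzymes that fell were the NAD hydrolase Cd38, at 0.360 and 0.759 CPM in WT_Cul, against 12.9 and 10.8 CPM in WT_FI (log2 -4.38 ± 0.62, adjusted p = 0.0142), its relative Bst1 (log2 -5.10), Qprt, of NAD synthesis from tryptophan (-4.61; outside the rule for naming and given to complete the count), and the ADP-ribosyltransferases Parp9 (-2.24) and Parp14 (-2.33), which are also interferon-induced genes. Nadk, which makes NADP from NAD, had 304 and 307 CPM in WT_Cul, against 103 and 103 CPM in WT_FI (log2 1.57 ± 0.34, adjusted p = 0.0272). The repair enzyme Parp2 rose by a log2 of 1.44. Cd38 and Bst1 are also expressed by blood and stromal cells, whose marker sums were lower in WT_Cul too.

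Quiescence genes were mostly lower or not past the threshold: 18 of 37 genes were lower and 1 was higher, against 16.0% and 12.6% of all genes, with a median of -2.04, and per-library medians of -2.68 in WT_Cul_0 and -2.56 in WT_Cul_1; leaving out each library gave 16 to 27 lower. Chodl had 2.96 and 2.31 CPM in WT_Cul, against 499.5 and 461 CPM in WT_FI (log2 -7.51 ± 0.47, adjusted p = 0.00962). Calcr, the calcitonin receptor that keeps satellite cells in the niche, had 3.68 and 3.89 CPM in WT_Cul, against 92.8 and 81.7 CPM in WT_FI (log2 -4.52 ± 0.38, adjusted p = 0.00962). Both differed many times over, and the libraries of a state were close to each other. Meg3, an imprinted long noncoding RNA, fell, with a log2 difference of -5.23, Apoe, a lipid carrier, at -5.81 and Rgs2, which damps G protein signalling, at -4.14. Notch3 had 36.2 and 66.4 CPM in WT_Cul, against 1611 and 2111 CPM in WT_FI (log2 -5.18 ± 0.56, adjusted p = 0.0103), and it is a pericyte marker as well, as is Rgs5; the pericyte markers summed higher in WT_FI. Asb5, a muscle ankyrin-repeat protein, went against the rest with 609.6 and 240.2 CPM in WT_Cul, against 59.6 and 62.7 CPM in WT_FI (log2 2.80 ± 0.56, adjusted p = 0.0244).

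The myogenic regulators did not move together: 2 rose and 3 fell of 16, and the median of 0.25 changed sign without WT_Cul_0 (12.5% higher and 18.8% lower, against 12.6% and 16.0% of all genes; 1 higher without WT_FI_0 and 5 without WT_Cul_1, and 2 lower without WT_FI_0 and 5 without WT_Cul_1). Myod1 had 2404 and 685 CPM in WT_Cul, against 44.99 and 13.9 CPM in WT_FI (log2 5.71 ± 1.01, adjusted p = 0.019), so that its lowest WT_Cul value was above its highest WT_FI value. Pax7 had 19.7 and 70.6 CPM in WT_Cul, against 138 and 117 CPM in WT_FI (log2 -1.49 ± 0.65, adjusted p = 0.14), lower in both WT_Cul libraries but not past the threshold. Without WT_Cul_1, the Pax7 log2 difference was -2.7 with an adjusted p of 0.00118, and without WT_Cul_0 it was -0.89 with an adjusted p of 0.0755. Myf5, the other early determination factor, had 212 and 108 CPM in WT_Cul, against 73.2 and 59.2 CPM in WT_FI (log2 1.28 ± 0.45, adjusted p = 0.0875). Eya3, a transcriptional cofactor, had 69.03 and 107 CPM in WT_Cul, against 35.3 and 39.4 CPM in WT_FI (log2 1.24 ± 0.37, adjusted p = 0.0614). The members that fell were Mef2c (log2 -3.001), Six5 (-2.59) and Eya2 (-3.34).

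Contractile genes differed between the WT_Cul libraries. The median of 53 sarcomere genes was 1.49 in WT_Cul_0 and -1.73 in WT_Cul_1, and 5 rose and 7 fell (9.43% higher and 13.2% lower, against 12.6% and 16.0% of all genes). The median of the fitted differences was 0.82, or 0.82 with Myh6 at its bound. Counts by library left out were 4 higher without WT_FI_0 and 27 without WT_Cul_1, and 4 lower without WT_FI_0 and 26 without WT_Cul_0. Among those that rose, the giant thin-filament protein Neb had 203 and 118 CPM in WT_Cul, against 9.41 and 8.61 CPM in WT_FI (log2 4.16 ± 0.45, adjusted p = 0.0103). The embryonic troponin Tnnt2 (log2 6.52) and the stress-responsive Ankrd1 (4.88) rose too. Myom1, of the M-band, fell, with a log2 difference of -4.99 and Tcap, of the Z-disc, at -4.88. Myh6, a cardiac myosin, had no fragment in WT_Cul and 1.87 and 2.67 CPM in WT_FI, at least 21.1-fold lower against a floor of 3 fragments per library. Mylpf, a fast myosin light chain, had 704 and 5.25 CPM in WT_Cul, against 8.25 and 3.17 CPM in WT_FI and overlapped between the states, and of 12 fibre markers 1, Ckmt2, was lower (log2 -3.06; 0 higher without WT_Cul_0 and 6 without WT_Cul_1, and 0 lower without WT_FI_0 and 6 without WT_Cul_0). The muscle membrane list had 5 higher and 7 lower of 36 (13.9% higher and 19.4% lower, against 12.6% and 16.0% of all genes; 2 higher without WT_FI_1 and 14 without WT_Cul_1, and 3 lower without WT_FI_1 and 13 without WT_Cul_0): the acetylcholine receptor subunits Chrna1 (log2 4.74) and Chrnd (4.27) rose, and dysferlin, Dysf (-2.53), which reseals membranes, and Ryr3 (-6.04), a calcium release channel, fell.

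Notch signalling, in which ligands on a neighbour release the intracellular domain of a receptor, was lower in culture for 9 of 30 genes and higher for none, with a median of -1.02 (8 lower without WT_FI_0 and 17 without WT_Cul_1). The feedback inhibitor Nrarp had 2.12 and 2.40 CPM in WT_Cul, against 117 and 148 CPM in WT_FI (log2 -5.87 ± 0.41, adjusted p = 0.00962). The target gene Heyl had 46.8 and 34.5 CPM in WT_Cul, against 369 and 317 CPM in WT_FI (log2 -3.08 ± 0.39, adjusted p = 0.0125). In both genes the states were well separated. Hey2, another target, fell, with a log2 difference of -5.43, Dtx4, a ubiquitin ligase of the pathway, at -3.24 and the ligand Dll4, known from endothelium, at -5.95. Notch3, Hey2 and Heyl are also expressed in vascular smooth muscle, whose markers moved the same way.

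Wnt genes fell for 13 and rose for 1 of 39, median -1.33 (0 higher without WT_FI_0 and 2 without WT_Cul_1, and 8 lower without WT_FI_0 and 22 without WT_Cul_1). As shares of the Wnt list, 33.3% were lower and 2.56% higher, against 16.0% and 12.6% of all genes. Fibroblast, pericyte, tenocyte and Schwann cell markers summed lower in WT_Cul as well, and their part in this and in the TGF-beta list was not tested. Several of those that fell are secreted inhibitors: Wif1 had 0.480 and 0.886 CPM in WT_Cul, against 71.7 and 75.00 CPM in WT_FI (log2 -6.73 ± 0.52, adjusted p = 0.00962). Dkk3 had 0.720 and 1.20 CPM in WT_Cul, against 87.8 and 77.00 CPM in WT_FI (log2 -6.41 ± 0.49, adjusted p = 0.00962), and neither came near its WT_FI level in WT_Cul. Sfrp4, another, fell, with a log2 difference of -5.21, the receptor Fzd7 at -2.71 and the agonist Rspo3 at -3.70, while the nuclear factor Tcf7 rose by 1.65. TGF-beta and BMP genes were lower for 26.1% and higher for 6.52%, against 16.0% and 12.6% of all genes, with a median of -0.72. The TGF-beta and BMP list had 12 lower and 3 higher of 46 (2 higher without WT_FI_0 and 8 without WT_Cul_0, and 9 lower without WT_FI_0 and 24 without WT_Cul_1): the ligands Bmp6 (log2 -3.68), Bmp2 (-3.05) and Tgfb3 (-2.23) and the receptor Tgfbr2 (-2.41) fell, and the inhibitor of differentiation Id1 (3.08), the inhibitory Smad7 (1.16) and the latent binding protein Ltbp2 (3.38) rose.

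Among growth factor genes, 8 of 32 fell and 1 rose (1 higher without WT_Cul_1 and 3 without WT_Cul_0, and 7 lower without WT_FI_0 and 24 without WT_Cul_1). The gene that rose was Met, the receptor for hepatocyte growth factor, which had 382 and 852 CPM in WT_Cul, against 34.7 and 27.8 CPM in WT_FI (log2 4.30 ± 0.57, adjusted p = 0.0134). Igf1 had 23.01 and 16.4 CPM in WT_Cul, against 182 and 139.7 CPM in WT_FI (log2 -3.03 ± 0.39, adjusted p = 0.013). The binding proteins Igfbp4 and Igfbp6 fell, with log2 differences of -4.48 and -4.44. Fgf1 and its receptor Fgfr2 fell, with log2 differences of -5.55 and -3.53; the receptor Fgfr1 was left out because its estimate failed in WT_FI_0. The list shares Pdgfra with the fibroblast markers and Pdgfrb with the pericyte markers, neither past the threshold (log2 -2.63 and -2.71), and both marker sums were lower in WT_Cul. Proteoglycans of the cell surface, which present these ligands, had 4 lower and 1 higher of 13 (0 higher without WT_FI_0 and 2 without WT_Cul_0, and 3 lower without WT_FI_0 and 7 without WT_Cul_0): Gpc3 (log2 -5.72), Gpc6 (-3.05), Sdc2 (-1.46) and Hpse2 (1 fragment in WT_Cul, 96.8-fold lower, counting interval 16.9 to 3870) fell and Gpc1 rose (2.18). In the proteoglycan list 30.8% were lower and 7.69% higher, against 16.0% and 12.6% of all genes, with a median of -1.11. The satellite cell syndecans did not pass, with Sdc3 at 321 and 457 CPM in WT_Cul, against 205 and 158 CPM in WT_FI (log2 1.10 ± 0.39, adjusted p = 0.09). Sdc4 had 489.6 and 311 CPM in WT_Cul, against 881 and 852 CPM in WT_FI (log2 -1.11 ± 0.41, adjusted p = 0.0972).

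Many extracellular matrix genes were called lower in WT_Cul, and several of them are also in the stromal marker lists. Fibrillar collagens were lower for 9 of 11 and higher for none, with a median of -4.41 (7 lower without WT_FI_0 and 10 without WT_Cul_1). Col1a2 had 194 and 579.9 CPM in WT_Cul, against 11535 and 8936 CPM in WT_FI (log2 -4.73 ± 0.74, adjusted p = 0.0159). Col3a1 had 564 and 573 CPM in WT_Cul, against 5325 and 2950.5 CPM in WT_FI (log2 -2.86 ± 0.50, adjusted p = 0.0183); both are in the fibroblast marker list, as is Col1a1. The cartilage and tendon chains Col11a2 and Col2a1 fell, with log2 differences of -6.65 and -4.82. Col5a2 did not follow, at 1092 and 2358 CPM in WT_Cul, against 860.4 and 659 CPM in WT_FI (log2 1.18 ± 0.52, adjusted p = 0.144), nor did Col5a1 pass (log2 -1.59). Other matrix genes were lower for 24 and higher for 1 of 48 (1 higher without WT_FI_0 and 2 without WT_Cul_0, and 22 lower without WT_FI_1 and 39 without WT_Cul_1): Col22a1, of the muscle-tendon junction, had 0.640 and 1.96 CPM in WT_Cul, against 434 and 428 CPM in WT_FI (log2 -8.35 ± 0.76, adjusted p = 0.00962). The small proteoglycan Dcn, also a fibroblast marker, fell, with a log2 difference of -5.10. Lamb3, a chain of the epithelial laminin-332, rose by 4.26.

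Matrix remodelling and adhesion had genes called in both directions. Proteases and inhibitors were lower for 41.7% and higher for 16.7%, against 16.0% and 12.6% of all genes (median -1.57). Adhesion receptors were lower for 30.6% and higher for 8.33% (median -1.19). Of 36 proteases and inhibitors, 15 fell and 6 rose (2 higher without WT_FI_1 and 9 without WT_Cul_1, and 12 lower without WT_FI_0 and 20 without WT_Cul_1). Adamts15, which cleaves versican, had 0.400 and 1.01 CPM in WT_Cul, against 124 and 129.8 CPM in WT_FI (log2 -7.46 ± 0.63, adjusted p = 0.00962). Adamts4 and Adamts5, aggrecanases, fell, with log2 differences of -4.68 and -3.37. In the other direction, the urokinase receptor Plaur had 101 and 92.3 CPM in WT_Cul, against 12.2 and 5.84 CPM in WT_FI (log2 3.42 ± 0.50, adjusted p = 0.0145). Mmp12, an elastase, had 7.72 and 2.85 CPM in WT_Cul and no fragment in WT_FI, at least 46.7-fold higher. Of 36 adhesion receptors 11 fell and 3 rose (2 higher without WT_FI_0 and 6 without WT_Cul_0, and 8 lower without WT_FI_1 and 21 without WT_Cul_1): Itga8 (log2 -7.30) and Itga10 (-4.71), collagen and matrix receptors of mesenchyme, fell, and the hyaluronan receptor Cd44 had 943 and 1759 CPM in WT_Cul, against 118 and 117 CPM in WT_FI (log2 3.53 ± 0.50, adjusted p = 0.0142). Ncam1 (2.01) and Itgb6 (6.02) were the others that rose.

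Signalling through G proteins and potassium channels was lower for many genes. The share lower was 51.3% of G protein receptors and Rgs genes and 55.3% of potassium channels, against 16.0% of all genes. The share higher was 0.0% and 2.63%, against 12.6% of all genes. G protein receptors and Rgs proteins were lower for 20 of 39 and higher for none, median -1.77 (14 lower without WT_FI_0 and 23 without WT_Cul_0). The neuropeptide Y receptor Npy1r had 0.960 and 3.29 CPM in WT_Cul, against 275 and 344 CPM in WT_FI (log2 -7.17 ± 0.79, adjusted p = 0.0104). The endothelin receptor Ednra had 6.24 and 9.37 CPM in WT_Cul, against 164 and 206 CPM in WT_FI (log2 -4.57 ± 0.43, adjusted p = 0.00962); both are known from vascular smooth muscle. Rgs4 fell, with a log2 difference of -5.38 and the adrenergic receptor Adra1d at -5.04. Potassium channels were lower for 21 and higher for 1 of 38, median -3.26 (1 higher without WT_FI_0 and 3 without WT_Cul_0, and 16 lower without WT_FI_0 and 26 without WT_Cul_1). Kcna5, a voltage-gated channel of vessels and heart, had 0.400 and 0.949 CPM in WT_Cul, against 138 and 162 CPM in WT_FI (log2 -7.77 ± 0.61, adjusted p = 0.00962); Kcnj8, the vascular KATP subunit and a pericyte marker, fell (log2 -6.11), Kcnmb1, a smooth muscle BK subunit, at -5.76 and Kcnh2 at -5.32. Kcnf1, a silent subunit that modifies other channels, was the exception with 40.7 and 20.03 CPM in WT_Cul, against 0.239 and 0.142 CPM in WT_FI (log2 7.29 ± 0.70, adjusted p = 0.00962).

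Immediate early genes are transcripts that appear within minutes of stimulation. Of 36, 19 were lower in WT_Cul and 2 were higher, with a median of -2.40 that was alike in both libraries (-2.24 and -2.08); leaving out each library gave 16 to 28 lower. Fos had 62.9 and 85.5 CPM in WT_Cul, against 6694 and 6846 CPM in WT_FI (log2 -6.51 ± 0.53, adjusted p = 0.00962) and had rank 5 by FPKM in WT_FI, at 3265 and 3369 FPKM. Fosb had 18.05 and 12.8 CPM in WT_Cul, against 2388 and 2197 CPM in WT_FI (log2 -7.21 ± 0.52, adjusted p = 0.00962). The cytokine inhibitor Socs3, the mRNA-destabilising Zfp36 and the orphan receptor Nr4a1 fell, with log2 differences of -6.06, -5.73 and -5.57. Against these, Fosl1, the FOS relative of growing cells, had 287 and 161 CPM in WT_Cul, against 1.47 and 2.31 CPM in WT_FI (log2 6.88 ± 0.58, adjusted p = 0.00962). Klf10, a TGF-beta-induced factor, had 286 and 299 CPM in WT_Cul, against 65.9 and 66.5 CPM in WT_FI (log2 2.14 ± 0.34, adjusted p = 0.0158). Fos and Fosb thus differed in sign from Fosl1.

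Of 28 chaperones, 5 rose and 5 fell, near the shares of all genes (17.9% higher and 17.9% lower, against 12.6% and 16.0% of all genes; 0 higher without WT_FI_0 and 8 without WT_Cul_1, and 3 lower without WT_FI_1 and 10 without WT_Cul_0), with a median of -0.16 that turned positive with the length correction and without WT_Cul_1. The stress-induced cytosolic Hspa1b had 69.2 and 71.4 CPM in WT_Cul, against 1372 and 1709 CPM in WT_FI (log2 -4.45 ± 0.43, adjusted p = 0.00962). Its near-identical neighbour Hspa1a fell, with a log2 difference of -4.43 and their cochaperone Dnajb1 at -2.97; fragments may be divided between Hspa1a and Hspa1b. The mitochondrial Hspa9 had 1162 and 1249 CPM in WT_Cul, against 239 and 286 CPM in WT_FI (log2 2.20 ± 0.38, adjusted p = 0.0183). The mitochondrial chaperonin Hspd1 rose by 1.99.

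Interferon-response genes were lower for 28 of 47 and higher for none, median -2.33, with 15 lower without WT_FI_0 and 33 without WT_Cul_1. The leukocyte markers also summed lower in WT_Cul, with 2 of 18 called lower, and their part in this was not tested. Irf1, which switches on many of them, had 30.3 and 27.1 CPM in WT_Cul, against 253 and 286 CPM in WT_FI (log2 -3.23 ± 0.36, adjusted p = 0.0104). The GTPase Iigp1 had 0.160 and 0.380 CPM in WT_Cul, against 33.4 and 43.1 CPM in WT_FI (log2 -7.10 ± 0.63, adjusted p = 0.00962). Irf7 and Mx2 fell, with log2 differences of -4.20 and -5.37. Class I antigen presentation had 1 lower of 16 (6.25%, against 16.0% of all genes), the nonclassical H2-T23 (log2 -3.70). The median of that list, -0.89, ranged from -1.31 to -0.58 on leaving out each library. Cytokine genes had 5 higher and 6 lower of 27 (18.5% higher and 22.2% lower, against 12.6% and 16.0% of all genes; 4 higher without WT_FI_0 and 7 without WT_Cul_1, and 4 lower without WT_FI_0 and 13 without WT_Cul_1): Lif, an IL-6 family cytokine that keeps myoblasts growing, had 141 and 126 CPM in WT_Cul, against 6.74 and 4.45 CPM in WT_FI (log2 4.58 ± 0.42, adjusted p = 0.00962). The macrophage growth factor Csf1 had 1794 and 2458 CPM in WT_Cul, against 111 and 80.4 CPM in WT_FI (log2 4.47 ± 0.48, adjusted p = 0.0103). Il33 and Il15 fell, with log2 differences of -3.70 and -4.34. Il1rl1, the receptor for Il33, rose by 6.24. Of 19 chemokines 4 were higher and 3 lower (21.1% higher and 15.8% lower, against 12.6% and 16.0% of all genes; 3 higher without WT_FI_0 and 9 without WT_Cul_1, and 2 lower without WT_FI_0 and 5 without WT_Cul_0): the monocyte attractant Ccl2 had 379 and 127 CPM in WT_Cul, against 16.7 and 12.03 CPM in WT_FI (log2 4.14 ± 0.67, adjusted p = 0.0167). Ccl7, another, rose (log2 3.46), while the stromal Cxcl12 (-2.35) and the eosinophil attractant Ccl11 (-3.53) fell; the list's median of 0.65 was -0.53 in WT_Cul_1 and -0.53 with the length correction. NF-kB genes had 3 on the higher and 3 on the lower side of 21 (14.3% higher and 14.3% lower, against 12.6% and 16.0% of all genes; 1 higher without WT_FI_0 and 6 without WT_Cul_1, and 1 lower without WT_FI_0 and 6 without WT_Cul_0), with the inhibitors Nfkbiz (-3.27) and Tnfaip3 (-1.72) lower and the subunit Nfkb2 (1.87) higher.

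The list of NRF2 and detoxification genes had 15 higher and 6 lower of 44 (34.1% higher and 13.6% lower, against 12.6% and 16.0% of all genes). Its median of 0.93 became 0.38 with the length correction. On leaving out each library that median ranged from 0.23 without WT_Cul_0 to 1.32 without WT_Cul_1. Hmox1, heme oxygenase, had 1505 and 655 CPM in WT_Cul, against 27.8 and 37.7 CPM in WT_FI (log2 5.04 ± 0.62, adjusted p = 0.0124). Slc7a11, which imports cystine, had 98.8 and 110.3 CPM in WT_Cul, against 6.74 and 4.02 CPM in WT_FI (log2 4.28 ± 0.44, adjusted p = 0.0102); neither overlapped between states. The glutathione synthesis subunits Gclm and Gclc rose by log2 differences of 2.88 and 2.31 and the thioredoxin reductase Txnrd1 by 2.74. The extracellular dismutase Sod3 (-3.04) and the retinal dehydrogenase Aldh1a1 (-3.17) fell.

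Some chromatin paralogs differed in opposite directions. In the PRC2 list 4 rose and 2 fell of 14 (0 higher without WT_FI_1 and 7 without WT_Cul_0, and 0 lower without WT_FI_0 and 5 without WT_Cul_1): the methyltransferase of dividing cells Ezh2 had 139 and 142 CPM in WT_Cul, against 28.3 and 20.97 CPM in WT_FI (log2 2.51 ± 0.36, adjusted p = 0.0141). Ezh1, its paralog of resting cells, had 24.5 and 35.8 CPM in WT_Cul, against 81.8 and 87.9 CPM in WT_FI (log2 -1.49 ± 0.36, adjusted p = 0.0362). Eed, a core subunit, rose by a log2 of 1.77. In the PRC2 list 28.6% rose and 14.3% fell, against 12.6% and 16.0% of all genes. Among 31 acetylation enzymes 3 rose and 3 fell (9.68% higher and 9.68% lower, against 12.6% and 16.0% of all genes; 0 higher without WT_FI_0 and 6 without WT_Cul_1, and 2 lower without WT_FI_0 and 7 without WT_Cul_1): Hat1, which acetylates new histone H4, had 161 and 139 CPM in WT_Cul, against 25.7 and 25.8 CPM in WT_FI (log2 2.54 ± 0.34, adjusted p = 0.0131). Kat2a rose by 1.37 and Hdac2 by 1.34, and Kat2b, the paralog of Kat2a, fell (log2 -2.76), Hdac5 at -1.34 and Hdac11 at -3.85. Of 26 histone variants and chaperones 9 rose and 0 fell (2 higher without WT_FI_1 and 16 without WT_Cul_1), among them the chaperone Nasp with 269 and 255 CPM in WT_Cul, against 40.7 and 40.7 CPM in WT_FI (log2 2.69 ± 0.34, adjusted p = 0.0125).

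Clock and imprinted genes were called lower more often than higher, as were all genes (16.0% against 12.6%). The shares were 38.9% lower and 5.56% higher of clock genes (median -1.48). For imprinted genes they were 37.5% and 4.17% (median -1.02). Of 18 clock genes 7 fell and 1 rose (0 higher without WT_FI_0 and 2 without WT_Cul_0, and 3 lower without WT_FI_0 and 12 without WT_Cul_1): Npas2, a partner of Bmal1, had 1.32 and 1.52 CPM in WT_Cul, against 23.03 and 17.1 CPM in WT_FI (log2 -3.82 ± 0.47, adjusted p = 0.0119). Hlf and Dbp, output factors, fell, with log2 differences of -3.79 and -1.97 and the repressor Cry2 at -2.34, whereas Gm129, a repressor also called Chrono, rose by 2.43. The hour of collection is not given. Of 24 imprinted genes 9 fell and 1 rose (1 higher without WT_Cul_1 and 2 without WT_Cul_0, and 6 lower without WT_FI_0 and 13 without WT_Cul_1), with Rian (log2 -4.51) and Dlk1 (-3.98) of the Meg3 locus lower. H19, a noncoding RNA that is high in differentiating myoblasts, rose with 3111 and 426 CPM in WT_Cul, against 99.5 and 53.4 CPM in WT_FI (log2 4.53 ± 1.09, adjusted p = 0.0362), most of it in WT_Cul_0.

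The architectural factor Hmga2, active in embryonic and young stem cells and in myoblast growth, had 136 and 159 CPM in WT_Cul, against 0.837 and 0.249 CPM in WT_FI (log2 8.09 ± 0.73, adjusted p = 0.00962). Igf2bp2, an mRNA-binding protein known as a target of Hmga2 in myoblasts, had 26.7 and 27.9 CPM in WT_Cul, against 5.10 and 6.02 CPM in WT_FI (log2 2.30 ± 0.39, adjusted p = 0.0173). Of 10 genes of that family list 5 rose and none fell (2 higher without WT_FI_1 and 8 without WT_Cul_1). Hmga1, the paralog of Hmga2, had 7.36 and 30.2 CPM in WT_Cul, against 2.23 and 0.890 CPM in WT_FI (log2 3.59 ± 0.92, adjusted p = 0.0413); fragments that it shares with related sequences may be divided, so its level is uncertain.

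The largest differences among genes above 10 CPM in a state, with groups that did not overlap, are given next. On the higher side stood Murc, a caveolar protein of muscle, at 134 and 41.8 CPM in WT_Cul, against 0.518 and 0.285 CPM in WT_FI (log2 7.77 ± 0.88, adjusted p = 0.0107). The growth factor Fgf5 had 15.2 and 22.5 CPM in WT_Cul, against 0.159 and 0.107 CPM in WT_FI (log2 7.11 ± 0.62, adjusted p = 0.00962). The cathepsin Ctsw had 30.1 and 20.9 CPM in WT_Cul, against 0.199 and 0.142 CPM in WT_FI (log2 7.19 ± 0.58, adjusted p = 0.00962). The neutrophil attractant Cxcl5 (log2 6.99), Otog (6.90) and Lman1l (7.36) were there too, with a WT_Cul_0 level several times that of WT_Cul_1. Ctrb1 and Sct, pancreatic and gut secretory genes, came mostly from WT_Cul_0: Ctrb1 had 70.8 and 1.01 CPM in WT_Cul, against 0.0399 and 0 CPM in WT_FI, 1 fragment in all in WT_FI, a ratio of 1690-fold with a 95% counting interval of 303 to 66900, and Sct had 56.9 and 1.77 CPM in WT_Cul, against 0.120 and 0.0356 CPM in WT_FI. On the lower side, Olfr78, an olfactory-type receptor found in vessels, had 0.440 and 1.99 CPM in WT_Cul, against 611 and 1133 CPM in WT_FI (log2 -9.46 ± 1.05, adjusted p = 0.0106). The sodium channel subunit Scn4b had 0.120 and 0.949 CPM in WT_Cul, against 257 and 347 CPM in WT_FI (log2 -9.09 ± 1.06, adjusted p = 0.0114). Unc80, of the sodium leak channel, had 0.160 and 0.0949 CPM in WT_Cul, against 73.8 and 98.7 CPM in WT_FI (log2 -9.38 ± 0.56, adjusted p = 0.00962). Ccdc85a (log2 -9.82), Slc38a11 (-9.33), Pde4c (-8.88) and Ibsp, a bone matrix protein (-10.40), followed. Ptx4 had 3 fragments in WT_Cul and was 1050-fold lower there (interval 359 to 5090), Cxcl13, a B cell attractant, had 2 and was 758-fold lower (209 to 6260), and Sycp2 had 1 and was 866-fold lower (155 to 34300). The erythroid genes Slc4a1, with 1 fragment in WT_Cul (1240-fold lower, 223 to 49100), and Hbb-b1, whose estimates rounded to 0 (at least 96.2-fold lower), also ranked there. These intervals cover counting error only.

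By level per length, the genes at the top differed between the states. In WT_Cul the protein-coding genes among the 8 highest included the galectin Lgals1, at 13710.0 and 3211 FPKM in WT_Cul and 872 and 589 FPKM in WT_FI, and the actin-sequestering Tmsb4x, at 6720.0 and 1755 FPKM in WT_Cul and 1670.0 and 1178 FPKM in WT_FI. Of these Lgals1 passed the test (log2 3.56 ± 0.83, adjusted p = 0.0335), and its WT_Cul_0 value was several times that of WT_Cul_1. In WT_FI the protein-coding genes at the top were Acta2, the myosin light chain Myl9, Fos, Tagln and the matrix protein Sparc, of which Acta2, Myl9 and Tagln are smooth muscle genes. Myl9 had 131 and 108 FPKM in WT_Cul and 3811 and 4058 FPKM in WT_FI (log2 -5.005 ± 0.46, adjusted p = 0.00962). Sparc had 819 and 923 FPKM in WT_Cul and 3819 and 2711 FPKM in WT_FI (log2 -1.87 ± 0.45, adjusted p = 0.0349). The small RNA genes Mir3064, Snord47, Snord99, Snord12 and Snord65 were also among the 8 highest by FPKM, at under 10 CPM in each library; polyA libraries do not measure them well, and none passed the test.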

How the data were processed

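PolyA RNA of satellite cells was sequenced by the submitters. Bowtie, TopHat, Cuffdiff, SICER and build mm9 are named in the submitters' processing notes, with no version or role. The deposited table gives an estimated count of fragments per gene and library and an FPKM (fragments scaled to gene length and library size), both made by the authors per the file headers; between 7.23% and 7.8% of the estimated counts above 0 were not whole, so they were rounded. How multi-mapped fragments and strand were treated is not given in the sources used here. Genes with a status other than OK in any library (25 FAIL, 2 HIDATA) were left out. Estimated counts were filtered with filterByExpr, scaled by TMM and tested with edgeR 4.0.16 in R 4.3.3 (robust quasi-likelihood F test, state as the only term). limma 3.58.1 and DESeq2 1.42.0 served as alternatives. Depth was 24254119 to 31643216 fragments per library, and the biological coefficient of variation was 0.434. The libraries of a state were no duplicates: the chi-square per degree of freedom of their fragments was 435.3 in WT_Cul and 93.58 in WT_FI. Each library held transcripts of both sexes. The female Xist had 20.86 and 88.58 FPKM in WT_Cul and 40.55 and 40.99 FPKM in WT_FI. The Y-linked Ddx3y had 10.79 and 11.02 FPKM in WT_Cul and 12.65 and 37.51 FPKM in WT_FI. Gene lists and members were chosen with earlier results of these data known, so lists are described by counts, many with medians or shares. Where no share of all genes stands beside a count, 12.6% higher and 16.0% lower apply. Named genes were Pax7, Myf5, Myod1, Myog, Mki67 and Sirt1; the 12 largest changes in each direction above 10 CPM with groups that do not overlap; up to 6 list members with the smallest p and 3 called against the majority; all members of lists of 15 or fewer; and the 8 highest by FPKM. Some genes that this rule names are not reported here. Promoters came from RefSeq (GRCm38.p6).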

Additional observations from a re-analysis of the deposited data

How the results depend on the processing

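The numbers of genes called were 1845 higher and 2355 lower in WT_Cul. Tested against a fold of 2 they were 724 and 1516, and on leaving out each library in turn they ranged from 389 to 3909 higher and from 1525 to 4141 lower. The length correction, chosen after seeing the data, gave 3412 higher. Fitting the table index as a replicate block gave 2918 higher and 3258 lower; labels do not say that the index pairs libraries, and the deviations of same-numbered libraries correlated at 0.387. Upper-quartile scaling moved the median of all genes to -0.113, with 1464 higher and 2600 lower. The other alternatives (RLE factors, both filters, DESeq2, limma on log2 FPKM with a pseudocount of 1 or 0.1, also unfiltered, no robust fit, a fold of 1.5) kept both counts within 1.5 times. The causes were not tested. No called gene named here changed sign; 30 of 239 lost their call in some setting that keeps all libraries. Some genes not called did change sign: Sirt1 was at 0.01 and Pttg1 at -0.74 after length correction, Gapdh at -0.02 and Snord99 at -0.03, and Pdha1 was at -0.03 under upper-quartile scaling. On leaving out each library, log2 differences ranged from -3.77 to 4.93 for Myog, -2.03 to 3.22 for Acta1, -0.15 to 6.95 for Mylpf, -0.52 to 0.13 for Sirt1, -0.64 to 0.83 for Pttg1, -0.08 to 1.07 for Gapdh, -0.15 to 1.79 for Snord65 and -0.1 to 1.22 for Snord99. Of 62 list medians, 11 changed sign in some setting. Depth limits the genes with few fragments in a state, which are given as ratios with counting intervals or as bounds.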
